A study of Mus musculus with 32 samples.

Results

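The 10 genes described here mark the endothelium of the liver: the sinusoidal markers Stab1, Stab2, Lyve1 and Clec4g, the shared or large-vessel genes Kdr, Pecam1, Cdh5 and Vwf, and the endothelial Wnt signals Rspo3 and Wnt2. They were taken by gene symbol from a table of raw counts that holds 54532 genes, in which each symbol matched 1 gene. All 10 passed the filter on low counts that left 17853 genes for testing. The libraries were made from livers of wild type mice given either normal chow or, for 2 weeks, a choline-free high fat diet with little methionine, abbreviated cdHFD. Livers were taken every 6 h at ZT2, ZT8, ZT14 and ZT20, where ZT is zeitgeber time in hours. Each of the 8 combinations of diet and time has 4 libraries, 2 from males and 2 from females, except cdHFD at ZT14 with 3 from males and 1 from a female. The labels do not give the light schedule, the strain, the age or the sequencing batch, and do not say that the 4 libraries of a group came from different animals. The p-values therefore measure the spread between these libraries.

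Liver sinusoids are lined by a fenestrated endothelium that has no continuous basement membrane and that clears waste molecules from blood through scavenger receptors and lectins. The endothelium of arteries, portal veins and larger central veins is continuous and is known for other genes, von Willebrand factor among them. Endothelial cells near the central vein secrete Wnt2, Wnt9b and Rspo3, which act on neighbouring hepatocytes and maintain the pericentral programme of metabolic enzymes. Whole-liver RNA was measured, so a lower value can come from fewer endothelial cells or from less RNA of the gene per cell, and these cannot be told apart.

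Total counts per library ranged from 29512682 to 54572362. Values are CPM, the usual abbreviation for read counts set relative to the library total, after scaling by the trimmed mean of M values (TMM), which sets libraries to a common level across most genes. The scaling factors were 0.746 to 0.918 in the chow libraries and 1.08 to 1.38 in the cdHFD libraries, so the choice of scaling shifts every diet difference. With total counts alone as the scale, the median log2 difference of all tested genes moved from -0.02 to 0.56, and the share of higher genes among the called ones moved from 49.9% to 88.3%. The 10 hepatocyte genes summed to 46900 to 203000 CPM in every library, as a check of the labelled tissue. Genes of other liver cell types moved with diet too: 11 of 12 Kupffer cell genes and 10 of 12 stellate cell genes rose (12 and 11 under total counts), and 10 of 10 hepatocyte genes and 6 of 6 blood genes fell under both scalings. The summed Kupffer cell genes covered 157 to 727 CPM in chow and 1180 to 2040 CPM in cdHFD, and none of the 12 was at 0 in any library. Of 6 tested cholangiocyte genes 4 rose, and of 6 mesothelial genes 1 rose (6 and 3 under total counts).

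Averaged over the 4 times, 5 of the 10 endothelial genes were higher in cdHFD and 2 were lower in edgeR's quasi-likelihood test, with a Benjamini-Hochberg adjusted p under 0.05 taken as the threshold. Lyve1, Cdh5, Rspo3, Stab1 and Pecam1 rose, Kdr and Clec4g fell, and Stab2, Vwf and Wnt2 did not pass. Of all tested genes, 31.0% were called higher and 31.2% lower, against which the members' 5 and 2 of 10 are counts of few genes. The median log2 difference of the members was 0.24, beside -0.02 for all tested genes, and the median absolute difference was 0.365, beside 0.415. No member separated the 16 chow from the 16 cdHFD libraries without overlap, while 8.54% of all tested genes did. At the scale of total counts 9 members were higher and none lower, and Clec4g, Kdr, Vwf and Wnt2 changed sign. At that scale 12353 of the 17853 tested genes were called higher and 1632 lower, which is the background for every count given under total counts. Relative to the median of all genes the differences kept nearly the same values under every scaling, for example -0.26 for Clec4g under both TMM and total counts. A change of scale shifts all genes by nearly the same amount, so this follows by construction and is no check of the differences.

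**Figure D1:**
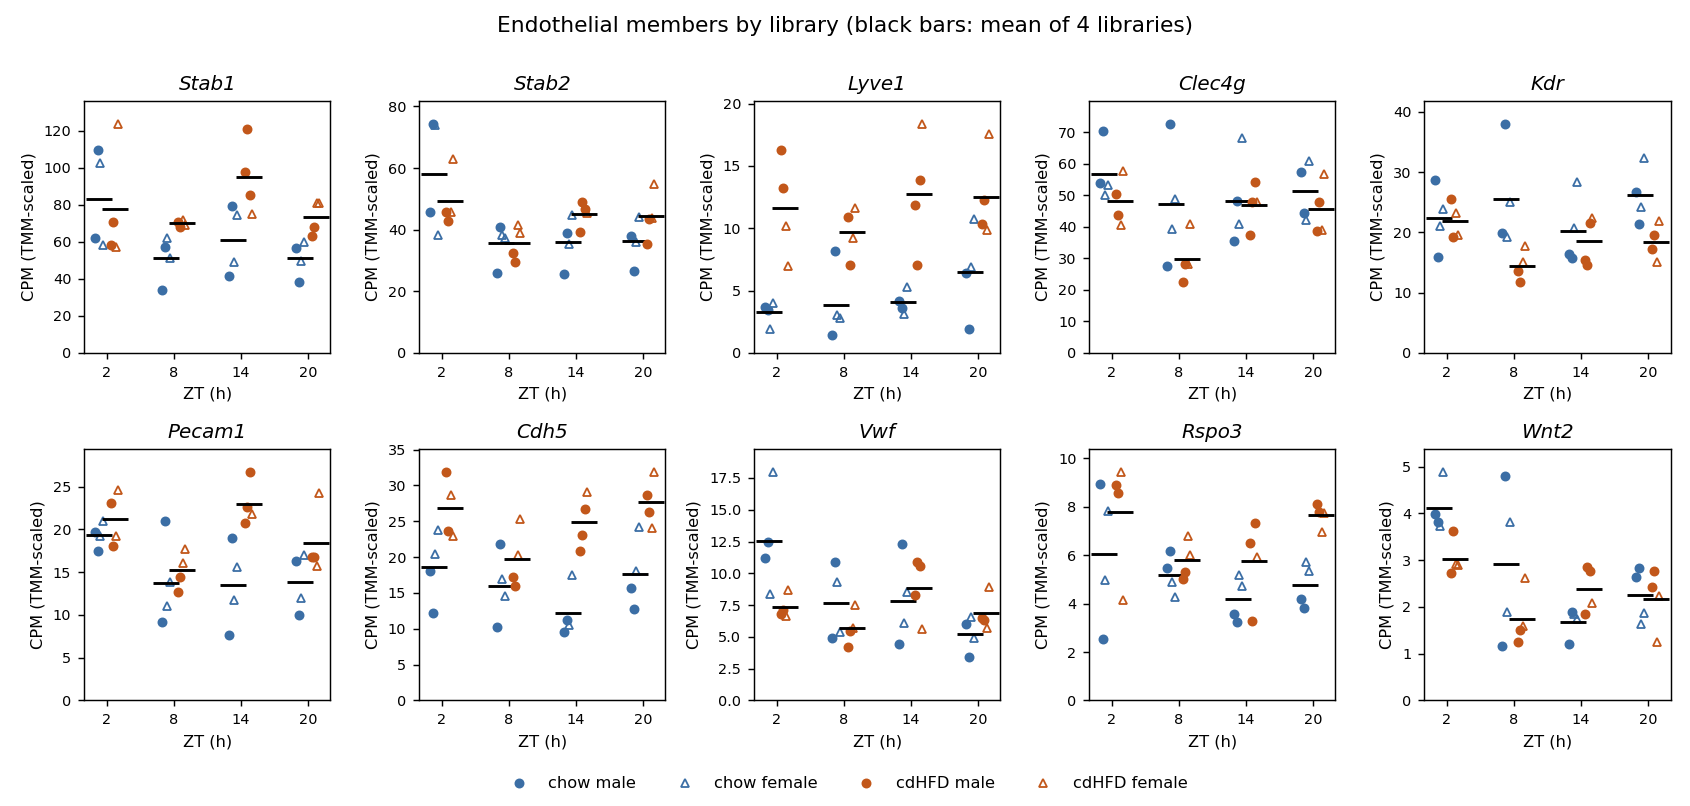
TMM-scaled CPM of each of the 10 genes in every library (vertical axes, from 0) against ZT in hours, with blue for chow, orange for cdHFD, filled circles for males, open triangles for females and black bars for means of 4 libraries. The cdHFD means of Lyve1 and Cdh5 lie above the chow means at all 4 times, with overlapping libraries at some of them, while Stab2, Vwf and Wnt2 overlap at most times.

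Stab1 and Stab2 encode stabilin-1 and stabilin-2, large scavenger receptors of sinusoidal endothelium that take up modified proteins and, in the case of stabilin-2, hyaluronan. Stab1 is also made by some macrophages. The 5′ flanking sequence of Stab1, a gene that rose, is shown beside that of Clec4g, a gene that fell, because these are sinusoidal genes that moved in opposite directions. Each run is the 250 bases before the RefSeq start site (GRCm38.p6, minus strand, read 5′ to 3′), at chr14:31168642-31168891 for Stab1 and chr8:3720652-3720901 for Clec4g. Neither run overlaps an annotated exon of its own gene, and exons of other genes were not checked. Capitals mark AGGAAG or its reverse complement CTTCCT, the core letters bound by many ETS factors, a family that acts widely in endothelial genes.
Stab1: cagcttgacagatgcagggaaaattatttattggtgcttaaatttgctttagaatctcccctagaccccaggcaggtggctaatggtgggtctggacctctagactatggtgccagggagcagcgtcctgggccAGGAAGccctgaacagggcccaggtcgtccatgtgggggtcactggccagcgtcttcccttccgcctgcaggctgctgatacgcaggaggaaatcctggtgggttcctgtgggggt
Clec4g: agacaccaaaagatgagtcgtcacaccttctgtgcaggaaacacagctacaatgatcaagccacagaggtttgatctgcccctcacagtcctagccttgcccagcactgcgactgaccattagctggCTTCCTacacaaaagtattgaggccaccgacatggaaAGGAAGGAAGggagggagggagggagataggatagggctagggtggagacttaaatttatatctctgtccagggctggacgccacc
In windows of 300 bases that run from 250 before to 50 after the start, the letters occurred 1 time for Stab1 and 3 times for Clec4g, of which 2 overlap each other. Among the 3 other members with such a window, Stab2 had 1 match and Kdr and Wnt2 had 0. Of 32851 mouse promoter windows of that length, 35.4% hold the letters on either strand, and a match describes the sequence only.

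In chow, Stab1 covered 34.2 to 109.8 CPM with a median of 57.8, and in cdHFD 57.1 to 123.7 CPM with a median of 71.3 (n = 16 each). Of the chow libraries 7 lay below every cdHFD library, and 2 cdHFD libraries lay above every chow library. Stab1 was 1.30-fold higher in cdHFD (log2 difference 0.38 ± 0.13 SE, adjusted p = 0.00662, edgeR). By time, the 4 libraries at ZT14 held 41.3, 79.5, 48.98 and 74.2 CPM in chow and 97.9, 121.0, 85.2 and 75.2 CPM in cdHFD. At that time 3 of the 4 cdHFD libraries were above all chow libraries, and the log2 difference was 0.67 ± 0.26 (SE, adjusted p = 0.0302, edgeR). The differences at ZT8 (0.46), ZT20 (0.52) and ZT2 (-0.11) did not pass. Without the ZT14 libraries the average was 0.28 and its adjusted p 0.0634. At ZT14 the call was lost without chow replicate 1, chow replicate 3, cdHFD replicate 1 or cdHFD replicate 2, with adjusted p from 0.0587 to 0.127.

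Stab2 did not follow its paralog in diet. The chow libraries ranged from 25.6 to 74.3 CPM with a median of 38.2, and the cdHFD libraries from 29.4 to 63.1 CPM with a median of 43.6. Both ranges overlapped almost fully, and the log2 difference was 0.11 ± 0.10 (SE, adjusted p = 0.339, edgeR). At ZT2 the chow libraries split into 74.3 and 74.0 CPM in replicates 2 and 3 and 45.6 and 38.2 CPM in replicates 1 and 4. The ratio of Stab1 to Stab2 per kilobase of exon was 0.33 ± 0.16 in chow and 0.61 ± 0.30 in cdHFD (log2, mean ± SD, n = 16), with overlapping ranges.

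Lyve1 encodes a hyaluronan receptor found on sinusoidal and lymphatic endothelium and on some macrophages. It had the largest diet difference of the 10 genes. In chow it covered 1.41 to 10.7 CPM with a median of 3.64, and in cdHFD 6.98 to 18.4 CPM with a median of 11.3. Of the 16 chow libraries 14 lay below every cdHFD library, and 9 of the 16 cdHFD libraries lay above every chow library. The fold was 2.73 (log2 difference 1.45 ± 0.23 SE, adjusted p = 8.36e-07, edgeR), and leaving out any single library kept it between 1.37 and 1.65. The 2 chow libraries that reached into the cdHFD range were ZT8 replicate 2 with 8.18 CPM and ZT20 replicate 4 with 10.7 CPM.

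At ZT2 the Lyve1 values were 3.67, 3.43, 1.90 and 4.03 CPM in chow and 16.3, 13.2, 10.2 and 6.98 CPM in cdHFD. The groups did not overlap, and the log2 difference was 1.84 ± 0.46 (SE, adjusted p = 0.00106, edgeR). Lyve1 was also higher at ZT8 (1.33, adjusted p = 0.0125, edgeR) and at ZT14 (1.67, adjusted p = 0.00274, edgeR). The ZT8 call rested on chow replicate 1, the lowest library at 1.41 CPM, without which the adjusted p was 0.0521. Without chow replicate 2, the highest of the 4, the ZT8 difference was 2.07 (adjusted p = 0.000169, edgeR). At ZT20 the chow libraries spread from 1.94 to 10.7 CPM and the cdHFD libraries from 9.84 to 17.6 CPM. The difference there was 0.95 ± 0.46 (SE, adjusted p = 0.0691, edgeR). It passed under DESeq2 (adjusted p = 0.0395) and limma with voom weights (adjusted p = 0.031), but did not pass in 9 of 14 alternatives. Without chow ZT20 replicate 4 it was 1.29 (adjusted p = 0.0245) and without chow ZT8 replicate 2 0.97 (adjusted p = 0.0257, edgeR). In 30 of 32 fits with 1 library left out it did not pass (adjusted p up to 0.226, edgeR). Of 7 lymphatic endothelial genes, a cell type that also carries Lyve1, 2 rose and 1 fell (3 higher and none lower under total counts). Prox1 fell from 85.97 to 58.05 CPM on average, but under total counts it did not pass (0.04, adjusted p = 0.755, edgeR). Reln, which is also on the stellate list, rose from 31.75 to 49.42 CPM. Foxc2, which also rose, and Ccl21a, which did not pass, averaged 0.216 and 0.993 CPM in chow. These counts therefore say little about lymphatic endothelium.

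Clec4g encodes a C-type lectin of sinusoidal endothelium, also known as LSECtin. In chow it covered 27.7 to 72.7 CPM with a median of 49.4, and in cdHFD 22.5 to 57.9 CPM with a median of 42.5. The ranges overlapped, with 4 chow libraries above every cdHFD library and 1 cdHFD library below every chow library. The log2 difference was -0.27 ± 0.12 (SE, adjusted p = 0.0383, edgeR). This call was the least stable of the 7: leaving out any 1 of 15 of the 32 libraries moved the adjusted p to between 0.0501 and 0.114, and limma with voom weights gave 0.0562. The library with the most weight was chow ZT8 replicate 2, without which the difference was -0.19 (adjusted p = 0.114, edgeR). The others were chow ZT2 replicate 2, ZT14 replicates 2 and 4 and ZT20 replicates 1 and 4, and cdHFD ZT2 replicates 2 and 3, ZT8 replicates 1, 2 and 3, ZT14 replicates 1 and 4 and ZT20 replicates 1 and 3.

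The 4 chow libraries at ZT8 held 27.7, 72.7, 39.5 and 48.8 CPM of Clec4g and the cdHFD libraries 22.5, 28.2, 28.2 and 41.0 CPM. Replicate 2 of chow stood far above the rest, and the lowest chow library lay inside the cdHFD range. The difference at ZT8 was -0.66 ± 0.24 (SE, adjusted p = 0.0209, edgeR). It did not pass without chow replicate 2 (-0.34, adjusted p = 0.229), cdHFD replicate 1 (adjusted p = 0.0871) or cdHFD replicate 3 (adjusted p = 0.054, edgeR in each case). At the other 3 times the differences lay between -0.24 and -0.01.

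Across the 16 listed sinusoidal genes, which include the 4 members, 5 rose and 6 fell in cdHFD, with a median log2 difference of 0.08. Under total counts the split was 14 higher and 1 lower. Among the others that rose, the largest changes were those of Clec1b, a lectin known also from platelets and Kupffer cells (8.0 to 32.5 CPM on average, log2 difference 2.05), and Mrc1, the mannose receptor shared with macrophages (21.9 to 39.5 CPM, 0.85). The lectin gene Cd209b fell from 0.328 to 0.106 CPM (-1.82), and Dnase1l3, a secreted nuclease of sinusoidal endothelium and some immune cells, fell from 41.8 to 28.5 CPM (-0.55; 0.02 under total counts). Fcgr2b, an Fc receptor that clears immune complexes, and Flt4, the receptor for VEGF-C, gave differences of 0.10 and 0.06 and did not pass. Several of the genes that rose, Lyve1, Stab1, Mrc1 and Clec1b, are also known from macrophages, whose markers rose at the same time (Clec4f from 130.9 to 260.9 CPM and Cd5l from 62.2 to 389.7 CPM). Their part in these differences was not tested.

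Kdr encodes VEGFR2, the main signalling receptor for VEGF-A in endothelium. It covered 15.8 to 38.0 CPM in chow with a median of 22.6 and 11.7 to 25.6 CPM in cdHFD with a median of 18.5. Of the chow libraries 5 were above every cdHFD library, and 6 cdHFD libraries were below every chow library. The log2 difference was -0.36 ± 0.11 (SE, adjusted p = 0.00368, edgeR), and it passed without any single library, at -0.40 to -0.28. The fall was largest at ZT8, where chow held 19.9, 38.0, 19.3 and 25.1 CPM and cdHFD 13.5, 11.7, 15.1 and 17.7 CPM. The groups did not overlap at that time, and the difference was -0.83 ± 0.22 (SE, adjusted p = 0.00214, edgeR). Without chow replicate 2, the library at 38.0 CPM, it was -0.54 (adjusted p = 0.0317, edgeR). The ZT20 difference of -0.50 did not pass (adjusted p = 0.0586, edgeR), and those at ZT2 and ZT14 were -0.03 and -0.09. Whether the diet difference varied with time was tested directly and did not pass for Kdr (adjusted p = 0.188, edgeR).

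Cdh5 encodes VE-cadherin, the adhesion protein of endothelial junctions. It covered 9.59 to 24.2 CPM in chow with a median of 16.3 and 15.9 to 31.9 CPM in cdHFD with a median of 24.7. In each diet 8 of 16 libraries lay outside the range of the other diet. The fold was 1.58 (log2 difference 0.66 ± 0.11 SE, adjusted p = 1.8e-06, edgeR), and without any single library the difference stayed between 0.62 and 0.74. At ZT14 chow held 9.59, 11.2, 10.6 and 17.4 CPM and cdHFD 20.9, 23.1, 26.7 and 29.2 CPM, with no overlap and a difference of 1.11 ± 0.21 (SE, adjusted p = 9.25e-05, edgeR). Cdh5 also rose at ZT20 (0.67, adjusted p = 0.00866, edgeR) and at ZT2 (0.56, adjusted p = 0.027, edgeR), and at ZT8 the difference of 0.29 did not pass. The ZT2 call was lost without chow replicate 2 (adjusted p = 0.12) or cdHFD replicate 1 (adjusted p = 0.135, edgeR).

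Pecam1 encodes CD31, an adhesion protein of endothelial junctions that is also carried by platelets and leukocytes. It covered 7.67 to 21.03 CPM in chow with a median of 15.97 and 12.7 to 26.8 CPM in cdHFD with a median of 18.6. In each diet 6 of 16 libraries lay outside the other range, and the log2 difference was 0.37 ± 0.12 (SE, adjusted p = 0.00593, edgeR). By time it passed at ZT14 alone, where chow held 7.67, 19.0, 11.7 and 15.6 CPM and cdHFD 20.8, 22.6, 26.8 and 21.8 CPM. The groups did not overlap there, and the difference was 0.79 ± 0.24 (SE, adjusted p = 0.0075, edgeR), falling to 0.59 without chow replicate 1 (adjusted p = 0.0503). Without the ZT14 libraries the average was 0.22 (adjusted p = 0.119, edgeR).

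Vwf encodes von Willebrand factor, a clotting glycoprotein of large-vessel endothelium and of megakaryocytes. It covered 3.38 to 18.0 CPM in chow with a median of 7.47 and 4.24 to 10.9 CPM in cdHFD with a median of 6.74. The diets overlapped apart from 4 high chow libraries and 1 low one, and the log2 difference was -0.15 ± 0.16 (SE, adjusted p = 0.368, edgeR). At ZT2 chow held 11.2, 12.5, 8.36 and 18.0 CPM and cdHFD 6.81, 7.09, 6.67 and 8.71 CPM. Chow was higher there apart from an overlap of replicate 3 with the highest cdHFD library, with a difference of -0.77 ± 0.31 (SE, adjusted p = 0.0321, edgeR). The chow ZT2 library with 18.0 CPM, replicate 4, also held 321 CPM of 7 summed smooth muscle genes, and chow ZT14 replicate 2, with 12.3 CPM of Vwf, held 191 CPM, while the median chow library held 20.7 CPM. Of those 7 genes 1 rose and none fell with diet (3 higher under total counts), and of 5 tested platelet and megakaryocyte genes, which share Vwf, 2 rose and 1 fell (4 higher and none lower under total counts). Without both of these chow libraries the ZT2 difference was -0.56 and did not pass (adjusted p = 0.102, edgeR). It was also lost without any one of chow ZT2 replicates 2 and 4 and cdHFD ZT2 replicates 1, 2 and 3, with adjusted p from 0.0605 to 0.15. At the other times the differences were -0.42, 0.19 and 0.39 at ZT8, ZT14 and ZT20, and none passed.

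The 20 listed pan-endothelial genes, Cdh5 and Pecam1 among them, split into 4 that rose, 5 that fell and 11 that did not pass, with a median log2 difference of 0.04. Their summed level covered 198 to 425 CPM in chow and 242 to 407 CPM in cdHFD. Ecscr, which encodes an endothelial membrane protein, rose from 3.05 to 5.802 CPM (0.95), while the transcription factor gene Sox7 (-0.42), the angiopoietin receptor gene Tek (-0.40) and Mmrn2 (-0.38), which encodes an extracellular matrix protein of vessels, fell, each with the opposite sign under total counts. Eng and Egfl7, the most abundant of those that did not pass, had differences of 0.13 and -0.05. Under total counts 17 of the 20 were higher and none lower. When libraries were scaled to this list without the 2 members, the 10 endothelial genes kept their signs, with Lyve1 at 1.46, Cdh5 at 0.63, Clec4g at -0.30 and Kdr at -0.40, and Rspo3 no longer passed (0.37, adjusted p = 0.065, edgeR).

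**Figure D2:**
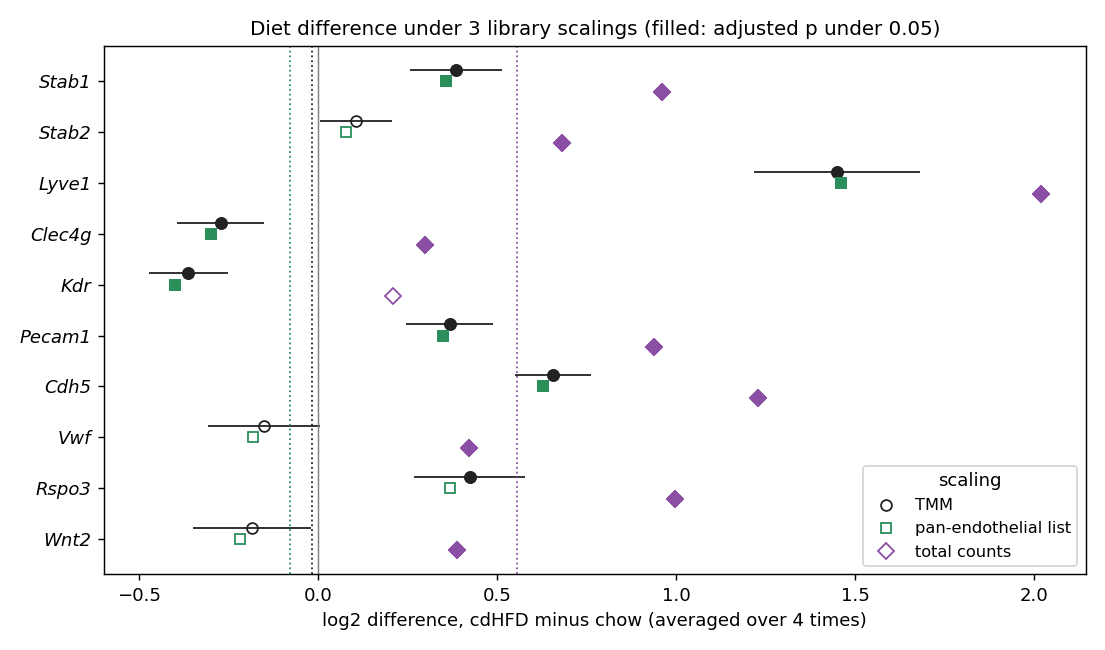
Log2 difference between cdHFD and chow, averaged over 4 times, for each gene under 3 ways of scaling the libraries, with bars for ± 1 SE under TMM, filled symbols for adjusted p under 0.05 and dotted lines for the median of all tested genes under each scaling. TMM and the pan-endothelial scaling give nearly the same values, and total counts shift all 10 genes by about the shift of the median, so that Clec4g, Kdr, Vwf and Wnt2 change sign.

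Large-vessel and continuous endothelium was described by 22 genes, of which 20 were tested. Of these, 12 rose, 3 fell and 5, Vwf among them, did not pass, with a median of 0.48. Under total counts 16 were higher and none lower. The genes with the largest changes were adhesion molecules that bind leukocytes: Vcam1 rose from 9.66 to 67.6 CPM (log2 difference 2.94), Icam1 from 12.1 to 43.1 CPM (1.84) and Sele, which encodes E-selectin, from 0.0364 to 0.583 CPM (4.41). Sele had 0 counts in 8 of the 32 libraries, so its fold depends on the prior count. Selp, which encodes P-selectin, another adhesion molecule that binds leukocytes, fell from 1.75 to 1.12 CPM (-0.66, adjusted p = 0.000911, edgeR). Cldn5 (-0.39) and Ephb4 (-0.15) fell too. Lyl1, a transcription factor gene shared with blood progenitors, rose from 1.68 to 4.66 CPM (1.51), while Sox17 and Dll4, which mark arterial endothelium, gave -0.35 and -0.23 and did not pass. Vcam1, Icam1 and Ly6a are also made by cells other than endothelium, and the share of each cell type in their rise was not tested.

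**Figure D3:**
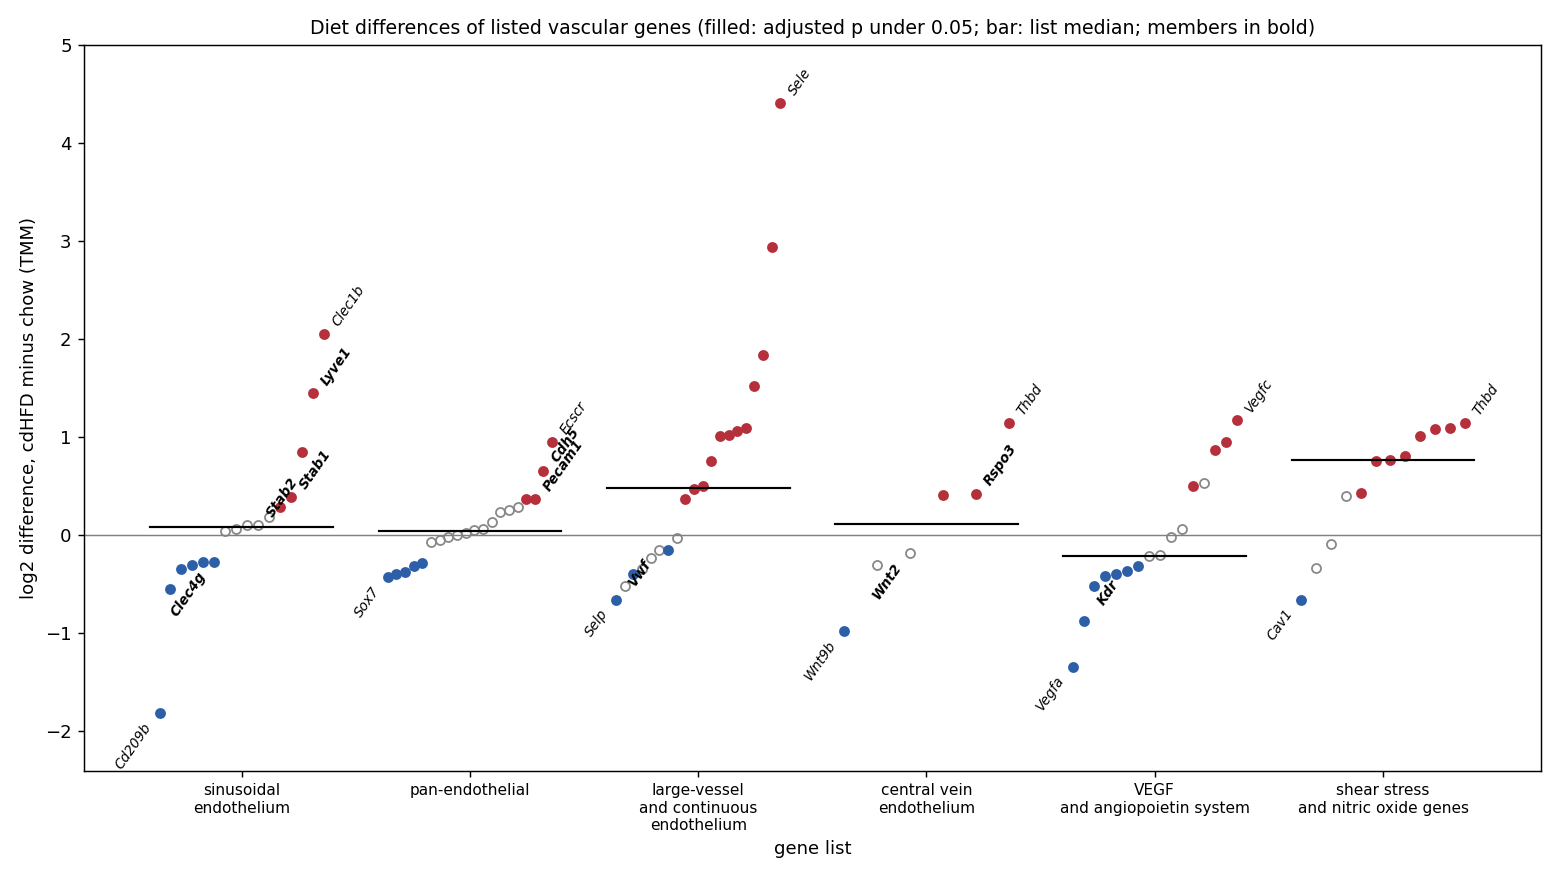
Log2 difference between cdHFD and chow under TMM (vertical axis) for the tested genes of 6 vascular lists, ordered within each list, with filled points for adjusted p under 0.05 (red higher, blue lower), open points for the rest, horizontal bars for list medians and bold names for the 10 members. The sinusoidal and pan-endothelial medians lie near 0 (0.08 and 0.04), and those of the large-vessel and shear stress lists at 0.48 and 0.76.

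The VEGF and angiopoietin genes, the pathway in which Kdr acts, included 4 that rose and 7 that fell of 16, with a median of -0.21. Under total counts 10 were higher and 2 lower. The ligand gene Vegfa fell from 292.8 to 115.9 CPM (log2 difference -1.34) and the coreceptor gene Nrp1 from 70.9 to 37.7 CPM (-0.88), and both stayed lower under total counts. Vegfc rose from 3.78 to 8.55 CPM (1.17), and Esm1, an endothelial gene known to respond to VEGF, from 0.472 to 0.902 CPM (0.95). The receptor genes Flt4 and Tie1 gave 0.06 and -0.02 and did not pass.

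Of 12 genes tied to shear stress and nitric oxide, 8 rose and 1 fell, with a median of 0.76, and 10 were higher and none lower under total counts. Thbd (thrombomodulin) rose by 1.14, Piezo1, a mechanically gated channel, by 1.096, the transcription factor gene Klf4 by 1.08 and Edn1 (endothelin-1) by 1.01 on the log2 scale. The gene that fell was Cav1 (-0.66, adjusted p = 0.0137, edgeR). Nos3, the endothelial nitric oxide synthase gene, gave -0.34 and did not pass (adjusted p = 0.0586, edgeR). Gja4, a gap junction gene, and Ptgis, the prostacyclin synthase gene, gave -0.09 and 0.40 and did not pass. The share of each cell type in these differences was not tested.

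Rspo3 encodes R-spondin 3, a secreted protein that strengthens Wnt signalling by sparing Wnt receptors from degradation. It covered 2.52 to 8.92 CPM in chow with a median of 4.93 and 3.28 to 9.45 CPM in cdHFD with a median of 6.89. All but 3 libraries lay in the range shared by the diets, and the log2 difference was 0.42 ± 0.16 (SE, adjusted p = 0.0103, edgeR). Leaving out any single library gave 0.36 to 0.51, each past the threshold. At ZT20 chow held 4.19, 3.81, 5.70 and 5.36 CPM and cdHFD 8.11, 7.78, 6.97 and 7.75 CPM, without overlap, and the difference was 0.69 ± 0.31 (SE, adjusted p = 0.052, edgeR). No time passed on its own for Rspo3. Its annotated exons share 13.1% of their bases with Gm48159 on the other strand, and reads of both genes cannot be told apart in a library that keeps no strand.

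Wnt2 encodes a Wnt ligand of the endothelium near the central vein and had the fewest counts of the members, 34 to 170 per library. It covered 1.16 to 4.89 CPM in chow with a median of 2.27 and 1.25 to 3.61 CPM in cdHFD with a median of 2.53. The diets overlapped apart from 6 high and 2 low chow libraries, and the difference was -0.18 ± 0.16 (SE, adjusted p = 0.32, edgeR). At ZT8 it was -0.74 ± 0.33 (SE, adjusted p = 0.0615, edgeR), with chow libraries at 1.16, 4.80, 1.90 and 3.82 CPM and cdHFD libraries at 1.26, 1.496, 1.59 and 2.62 CPM. The chow values there spread widely, and replicate 2, the highest, was also the highest chow library for Clec4g and Kdr.

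Of the 12 tested genes for Wnt ligands and their secretion, which include Rspo3 and Wnt2, 4 rose and 4 fell (7 higher and 1 lower under total counts). Wnt9b, the other ligand of the central vein, fell from 1.91 to 0.906 CPM (log2 difference -0.98, adjusted p = 0.000183, edgeR), which under total counts was -0.42 and did not pass. Porcn, needed to acylate Wnt proteins, fell from 9.72 to 2.74 CPM (-1.81), while Wls, the carrier of Wnt proteins to the cell surface, rose from 4.38 to 10.8 CPM (1.30). The low ligand genes Wnt11 and Wnt2b moved by 1.78 and -0.995, of which that of Wnt2b did not pass under total counts (-0.42, adjusted p = 0.123, edgeR). Wnt4 and Wnt9a gave 0.17 and 0.14 and did not pass.

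Among 14 Wnt receptor and coreceptor genes 2 rose and 8 fell (6 higher and 3 lower under total counts). Lgr4, a receptor for R-spondins, fell from 40.9 to 17.5 CPM (-1.22), and the frizzled genes Fzd8, Fzd7 and Fzd4 by 1.16, 0.77 and 0.77 on the log2 scale. Under total counts Fzd7 did not pass (-0.20, adjusted p = 0.0873, edgeR). Lrp5, a Wnt coreceptor gene, and Znrf3, which encodes the ligase that removes Wnt receptors, gave 0.20 and -0.02 and did not pass. Of 8 tested Wnt inhibitor genes 2 rose and 4 fell (3 higher and 1 lower under total counts), with Shisa2 at 1.75 and Dkk3 at 1.74 against Notum at -1.01 and Sfrp5 at -0.90. Under total counts Sfrp5 did not pass (-0.35, adjusted p = 0.36, edgeR).

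The 18 pericentral hepatocyte genes known as Wnt targets included 13 that fell and 1 that rose, with a median of -0.64. Under total counts 6 were higher and 7 lower. Rgn, the regucalcin gene, fell from 1364 to 395 CPM (-1.78), Oat, the ornithine aminotransferase gene, from 904 to 285 CPM (-1.65), the glutamate transporter gene Slc1a2 from 153 to 53.8 CPM (-1.48) and Cyp2e1 from 6643 to 3035 CPM (-1.13). Axin2, a target of Wnt signalling in most tissues, and Lect2 gave 0.23 and 0.14 and did not pass. All 10 general hepatocyte genes also fell, with a median of -1.30, and the part of that shift in the pericentral genes was not tested.

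Among the 6 genes of central vein endothelium, Rspo3, Thbd and Kit rose (Kit by 0.41) and Wnt9b fell, and Wnt2 and Cdh13 (-0.31) did not pass. Under total counts 4 were higher and none lower. Of 17 angiocrine genes of the BMP, HGF and Notch systems, 10 rose and 2 fell, with 14 higher and none lower under total counts. Hey1, a Notch target, rose by 2.13, Hgf, the hepatocyte growth factor gene made largely by stellate cells, by 1.64, Id1, a BMP target, by 1.12 and Bmper by 1.09 on the log2 scale, while Notch4 and Dll4 gave 0.04 and -0.23.

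Levels between genes were compared per kilobase of annotated exon. Clec4g was the most abundant member in both diets, with 20.7 ± 5.2 CPM per kb in chow and 17.3 ± 4.2 in cdHFD (mean ± SD, n = 16). In chow Stab1 (5.99 ± 2.05), Stab2 (4.74 ± 1.62) and Cdh5 (3.83 ± 1.15) followed, then Kdr (2.61 ± 0.68), Pecam1 (2.43 ± 0.71), Rspo3 (1.63 ± 0.53), Lyve1 (1.51 ± 0.86), Wnt2 (1.21 ± 0.56) and Vwf (0.52 ± 0.24). Neighbours in this order below Clec4g differed by less than the sum of their SDs. In cdHFD Stab1 (7.67 ± 1.92) was followed by Cdh5 (5.90 ± 1.13), Stab2 (4.98 ± 0.93), Lyve1 (3.99 ± 1.21), Pecam1 (3.12 ± 0.65), Rspo3 (2.18 ± 0.56), Kdr (2.03 ± 0.44), Wnt2 (1.03 ± 0.30) and Vwf (0.45 ± 0.12). The gaps between Kdr and Wnt2 and between Wnt2 and Vwf exceeded the sum of their SDs in cdHFD, and the other gaps below Clec4g did not. Lyve1 and Kdr exchanged their places in the order between the diets.

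Ratios of members within a library do not depend on the library scale. Of the 45 ratios between pairs of members, 2 did not overlap between the diets, and both had Kdr in them. Among all pairs of the 15555 tested genes with counts in every library, 9.07% of the ratios did not overlap. The log2 ratio of Kdr to Cdh5 per kb ran from -1.1 to -0.13 in chow with a median of -0.42, and from -1.84 to -1.33 in cdHFD with a median of -1.54. Lyve1 over Kdr ran from -2.19 to 0.04 in chow with a median of -0.86, and from 0.14 to 1.34 in cdHFD with a median of 0.98. In all 16 cdHFD libraries Kdr was thus lower against Cdh5, and Lyve1 higher against Kdr, than in any chow library. These pairs were picked from the 45 by their separation and are given without a test. Clec4g against Cdh5 and Clec4g against Pecam1 came close to separation, with 15 of 16 cdHFD libraries below every chow library in each.

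**Figure D4:**
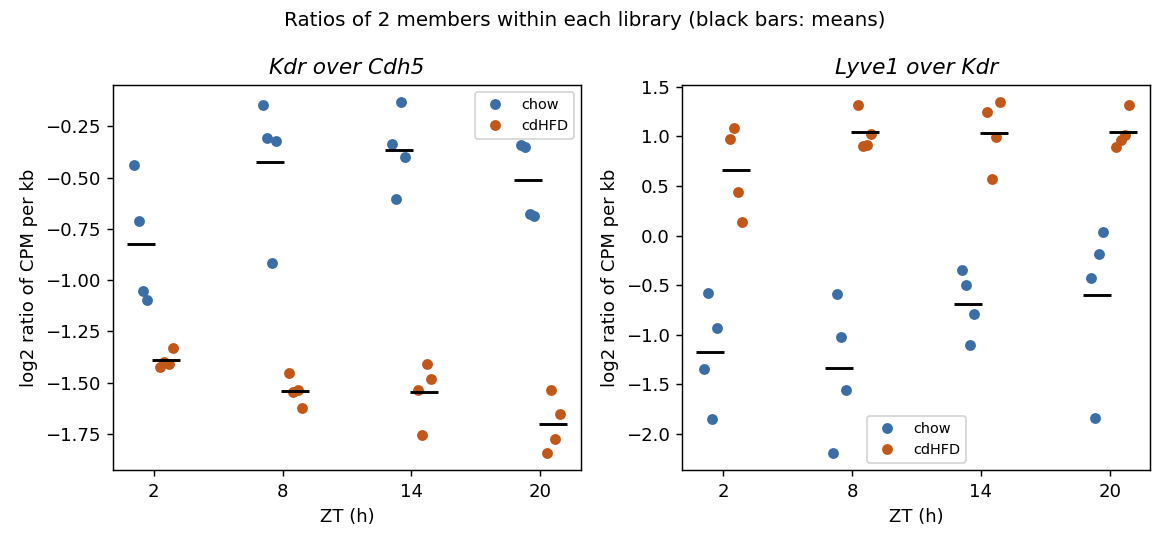
Log2 ratios of CPM per kb between 2 members within each library (vertical axes) against ZT in hours, blue for chow and orange for cdHFD, with black bars for means of 4 libraries. Kdr over Cdh5 lies above -1.1 in all 16 chow libraries and below -1.33 in all 16 cdHFD libraries, and Lyve1 over Kdr at or below 0.04 in chow and from 0.14 upwards in cdHFD.

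At single times the number of called members was 3 at ZT2 (Lyve1, Cdh5, Vwf), 3 at ZT8 (Lyve1, Clec4g, Kdr), 4 at ZT14 (Stab1, Lyve1, Pecam1, Cdh5) and 1 at ZT20 (Cdh5). Among all tested genes the called share was 41.7%, 40.0%, 35.6% and 39.1% at these times, and whether the members' share differed from it was not tested. The ZT20 count was the least fixed, at 2 to 7 under 10 of the other settings. Apart from total counts, the genes that joined Cdh5 were Rspo3, Lyve1, Kdr and Stab1, in different sets. The share of all genes called at ZT20 in those settings was not counted. No member passed the test that the diet difference was unequal across times (edgeR, lowest adjusted p 0.168 for Vwf), while 5.77% of all genes did. At an unadjusted p under 0.05 there were 2 such members in edgeR, 3 in DESeq2 and 2 in limma with voom weights, and DESeq2 and limma also called 0 after adjustment. Members called at one time and not at another are therefore not shown to differ between times.

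A 24 h cosine was fitted within each diet. In chow 2 members passed, Wnt2 (adjusted p = 0.0143) and Stab2 (adjusted p = 0.0451, edgeR), beside 17.7% of all genes. Wnt2 in chow held 3.98, 3.82, 3.73 and 4.89 CPM at ZT2 and 1.21, 1.89, 1.85 and 1.74 CPM at ZT14. The groups of these times did not overlap, but they had the highest and lowest means and were picked from the values, so this is no separate test. The chow ZT8 group, from 1.16 to 4.80 CPM, overlapped both. The fitted peak was at ZT 2.61 ± 1.02 h with an amplitude of 0.65 ± 0.17 on the log2 scale (± SE). The Stab2 peak was at ZT 1.86 ± 1.33 h with an amplitude of 0.33 ± 0.11. Wnt2 passed without any single library (adjusted p up to 0.0453), whereas Stab2 was lost in 19 of 32 such fits (adjusted p up to 0.234). Wnt2 did not pass without both chow libraries with over 100 CPM of smooth muscle genes (adjusted p = 0.0509, edgeR). It was also lost when scaled to the pan-endothelial list (adjusted p = 0.0535), without the ZT14 libraries (adjusted p = 0.114) and in males alone (adjusted p = 0.344, edgeR).

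In cdHFD no member passed the cosine test (edgeR, lowest adjusted p 0.48 for Cdh5), beside 2.47% of all genes. There the Wnt2 mean was 3.03 ± 0.40 CPM at ZT2 and 2.39 ± 0.49 at ZT14 (SD, n = 4). At an unadjusted p under 0.05 there were 0 members in edgeR, 0 in DESeq2 and 2 in limma with voom weights, and the other tools called 0 after adjustment. The test that the cosine differed between diets also gave 0 members (edgeR, 1 at an unadjusted p, Vwf), with adjusted p of 0.288 for Wnt2 and 0.324 for Stab2, beside 3.64% of all genes. DESeq2 and limma with voom weights called 0 in this comparison too, with 2 and 1 at an unadjusted p. With no filter on low counts 1 member passed this test in edgeR.

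Female and male libraries were compared within each diet. No member passed in chow (edgeR, 1 at an unadjusted p), beside 9.47% of all genes, or in cdHFD (0 at an unadjusted p), beside 0.941%. The nearest was Cdh5 in chow, 0.38 ± 0.15 higher in females (log2 ± SE, adjusted p = 0.102, edgeR). The sex difference did not pass as unequal between diets for any member (0 at an unadjusted p), beside 1.85% of all genes, and DESeq2 and limma with voom weights called 0 members in all 3 sex comparisons, with 1 each at an unadjusted p in chow.

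The way the members varied among the 32 libraries was examined after the group means and sex had been removed. Of 45 pairs, 19 had a Pearson correlation of residual log2 CPM above 0.5 and 4 were below 0, with a median of 0.47. These are descriptions over 32 libraries that share depth, RNA quality and base composition effects. The strongest pairs were Stab1 with Stab2 (0.83), Kdr with Cdh5 (0.80), Clec4g with Pecam1 (0.79), Lyve1 with Cdh5 (0.72) and Pecam1 with Vwf (0.71). Kdr and Cdh5 thus varied together within groups while their diet differences had opposite signs under TMM. The pairs below 0 were those of Rspo3 with Stab1 (-0.64), Stab2 (-0.47) and Clec4g (-0.14), and of Kdr with Stab1 (-0.19).

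**Figure D5:**
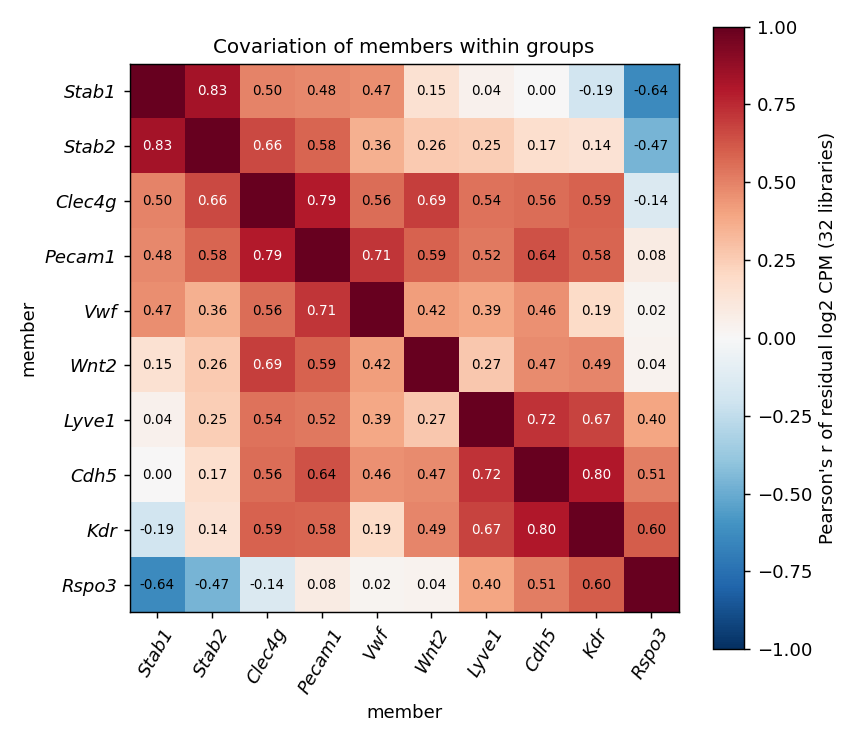
Pearson correlation of residual log2 CPM between each pair of members over 32 libraries after removal of group means and sex (colour from -1 in blue to 1 in red, value in each cell). Stab1 and Stab2 form one pair (0.83), Lyve1, Cdh5 and Kdr another set (0.67 to 0.80), and Rspo3 is negative with both stabilins.

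Base composition moved with part of this pattern. The longest Stab1 transcript has 57.3% G and C bases and that of Rspo3 44.1%. In each library the deviation of log2 CPM from each gene's mean over all libraries was regressed on transcript GC content over 17840 genes. After removal of group means and sex, the slopes correlated with the residuals of Stab1 at 0.70, of Stab2 at 0.51 and of Rspo3 at -0.82. The other members were weaker: Clec4g and Vwf gave 0.40 each, Kdr -0.40, Pecam1 0.19, Cdh5 -0.17, Wnt2 0.16 and Lyve1 -0.08. GC content did not order these correlations throughout, with 51.7% for Stab2, 52.2% for Cdh5 and 45.8% for Lyve1. The part of base composition in the pattern was not tested. Before that removal the slope was 0.427 in chow ZT2 replicate 2, where Stab1 reached 109.8 CPM, Stab2 74.3 CPM and Rspo3 2.52 CPM, the last being the lowest of all 32 libraries. It did not differ much by diet, with -0.33 to 0.43 in chow and -0.23 to 0.33 in cdHFD. With the slope as a covariate the same 7 members passed for diet, Stab1 at 0.34 (adjusted p = 0.00119) and Rspo3 at 0.49 (adjusted p = 5.06e-05, edgeR), and Stab2 lost its cosine in chow (adjusted p = 0.149).

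For each member the genes with the most similar residuals were sought among 13492 genes with a mean of at least 1 CPM. For Clec4g they were Gpr182 (r = 0.93), Exoc3l2 (0.88) and Sox18 (0.88), for Kdr F8 (0.93), Oit3 (0.88) and Adgrl4 (0.85), and for Cdh5 Oit3 (0.81), Kdr (0.80) and Tspan7 (0.79). Lyve1 was closest to Tmem204 (0.82), Oit3 (0.78) and Col14a1 (0.78), and Pecam1 to Cd300lg (0.87), Fabp4 (0.84) and Ripply3 (0.83). Gpr182, F8 and Oit3 are themselves on the sinusoidal list, Sox18 and Adgrl4 on the pan-endothelial list and Fabp4 on the large-vessel list. Stab1 was closest to Sipa1 (0.94), Arrb2 (0.92) and Dok3 (0.92), and Stab2 to Sh3tc1 (0.89), Plxnd1 (0.88) and Dysf (0.85), all with at least 55.5% GC. Rspo3 had Yipf4 (0.91), Vapa (0.91) and Tmed7 (0.90), with at most 42.7% GC. Vwf was closest to Smtn (0.76), a smooth muscle gene, Susd2 (0.74) and Mustn1 (0.73), and its residuals had a correlation of 0.61 with the summed smooth muscle list. The nearest genes of Wnt2 were Icam2 (0.75), Sergef (0.72) and Ada (0.70). For the members other than Stab1, Stab2 and Rspo3, the GC content of the nearest genes ran from 39% (F8) to 62% (Exoc3l2).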

How the data were processed

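Poly-A RNA of mouse liver was sequenced in 32 non-directional, paired-end Illumina libraries from RNA with an integrity number above 6.5, per the labels' protocols. The deposited table holds raw counts per gene. The tools named in the submitters' processing notes are HISAT2, featureCounts and DESeq2 with GRCm38 (mm10), with no settings recorded in the labels. Coordinates, exon lengths and GC content come from GENCODE M21, which matched 54409 of the 54532 genes, and promoter sequences from RefSeq GRCm38.p6, which held 5 of the 10 members.

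Counts were scaled by TMM, filtered with edgeR's filterByExpr (17853 genes kept) and tested with edgeR 4.0.16 (R 4.3.3) by the quasi-likelihood F-test with robust dispersions, with p-values adjusted by Benjamini and Hochberg over all 17853 genes. One model had the 8 groups and sex, another a 24 h cosine within each diet and sex, and the last sex within diet beside the groups. The SE is that of a linear model on log2 CPM with a prior count of 2. Library sizes of 29512682 to 54572362 counts set the counting precision, and the 4 libraries per group limit it further. The counting does not separate strands. Any 2 libraries of a group differed by more than sampling noise (48 pairs, chi-square per degree of freedom 19 to 324), so none was treated as a copy of another. Repeat libraries of 1 animal could differ as much, so this does not show separate animals. No library went against its sex label. The test was run on simulated counts in which few genes changed with diet, equally up and down. That setting differs from these data, so it does not check the choice of scaling.

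Alternatives were other scalings and filters, DESeq2 1.42.0, limma 3.58.1 with voom weights, no sex term, the replicate number as a block, each sex alone, no ZT14, and leaving out each library. A GC covariate, and leaving out both chow libraries with over 100 CPM in 7 smooth muscle genes, were chosen after seeing the data. The members and gene lists were chosen with earlier results of these data known. All members are named. Beside the members, genes were named from each endothelial and pathway list. These are up to 4 called genes with the largest diet difference and up to 2 of the highest level that did not pass. The 3 genes closest to each member in residuals are also named. Genes of the other cell types are given mainly as counts, with Cd5l, the largest change of the Kupffer cell list, named. Clec4f, Ly6a, Selp, Cldn5, Ephb4, Cav1 and Nos3 are named outside this rule, after their values were seen.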

Additional observations from a re-analysis of the deposited data

Results flagged for a closer look

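In each group of 4 libraries the gap of the highest or lowest library to its nearest neighbour was compared with the range, and 3 of 80 combinations of gene and group exceeded Dixon's 95% critical value. Chance flags about 1 in 20 groups, which is more than were found here. Of the 3, 2 came from the same library. In cdHFD ZT2 replicate 4, Stab2 stood at 63.1 CPM against 42.9 to 45.7 CPM in the other 3 libraries, and Rspo3 at 4.164 CPM against 8.55 to 9.45 CPM. In cdHFD ZT20 replicate 4, Pecam1 stood at 24.25 CPM against 15.7 to 16.8 CPM. The GC slope of cdHFD ZT2 replicate 4 was 0.331, the highest of the cdHFD libraries, and its part in these values was not tested.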

How the results depend on the processing

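Of 140 recomputed diet averages of the members under 14 alternatives, 123 kept their sign and their side of the threshold, and of 320 with 1 library left out, 305 did, the other 15 being those of Clec4g. Scaling by total counts reversed the signs of Clec4g (0.298), Kdr (0.208), Vwf (0.421) and Wnt2 (0.388), gave 9 members higher and 0 lower, and called 5, 6, 9 and 7 members at ZT2, ZT8, ZT14 and ZT20. By construction it moves every gene upwards in cdHFD relative to TMM. The share of all genes called at single times under total counts was not counted. Males alone gave 3 higher, 0 lower, 1 at ZT14 and 0 for the cosine in chow. Females alone gave 3 higher, 0 lower, 1 at ZT2, 1 at ZT8, 2 at ZT14, 0 at ZT20 and 0 for the cosine in chow. Both of these fits had fewer samples. Without ZT14 there were 3 higher, and 2 at ZT20. Limma with voom weights gave 1 lower, 3 at ZT20 and 1 cosine in chow. At ZT20 the count was 2 with DESeq2 size factors, the pan-endothelial scaling, the stricter filter or the replicate block, 3 with DESeq2 tests, 4 with the GC covariate and 5 with no filter. With no filter there were also 1 member (Vwf) with a diet difference unequal across times, 4 cosines in chow, 1 cosine unequal between diets and 1 sex difference in chow (Cdh5). Leaving out both chow libraries with over 100 CPM of smooth muscle genes gave 1 diet difference unequal across times (Stab2) and 1 cosine in chow. The cosine count in chow was 0 under the pan-endothelial scaling and 1 without the sex term. For the counts from males alone onwards, the share of all genes called in the same fit was not counted. They are therefore no result about the members against all genes. Except as stated, the cause was not tested.

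With 1 library left out, the number of lower members ranged from 1 to 2, and the number of higher members was 5 each time. Calls ranged from 1 to 3 at ZT2, from 2 to 4 at ZT14 and from 1 to 3 at ZT20. Cosines in chow ranged from 1 to 3 and sex differences in chow from 0 to 1. The share of all genes called in these fits was not counted.

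The replicate numbers of the labels were checked as a possible pairing: 85 of 112 same-numbered pairs had a residual correlation over 0.1 (median 0.189, lowest -0.258), and 18 of 32 libraries correlated best with their own number. The median for pairs with other numbers was -0.0947. Libraries of the same number were thus more alike at the median, though not in every case, and what the numbers stand for was not tested. The replicate block called the same 7 members for diet, and 2 at ZT20, with no other count of calls moved by over 1.5 times. Counts of 34 to 170 per library limit Wnt2 the most.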
